A study of Rattus norvegicus with 16 samples.

Results

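The 5 genes described here, Tap2, RT1-DOb, RT1-Bb, Ly6g6e and Ly6g6d, lie in the major histocompatibility complex (MHC) on rat chromosome 20. They were chosen from measured values of these arrays, for a difference between the Sprague Dawley (SD) and Fischer (F344) strains. Which arrays the choice used is not stated. It is taken here to rest on the room air arrays, whose strain difference is therefore given as a description. Each gene had 1 probe set, so the 5 genes are 5 of 27342 probe sets in all and 5 of the 15097 that carried 1 gene symbol. Expression was measured in the retina of rat pups kept in alternating oxygen or in room air, in a study of oxygen-induced retinopathy. That is a model of the disease of premature infants in which swings in oxygen disturb the growing vessels of the eye. No sample label says that a pup had retinopathy. The question of the study was how retinal expression differs between a resistant and a susceptible strain, which are generally known to be F344 and SD.

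The 16 arrays form 8 groups of 2. F344 and SD pups either breathed 80% and 21% oxygen in alternation, each for 24 h, beginning no later than 12 h after birth (cyclic hyperoxia), or stayed in room air, and retinae were taken on postnatal day 5 or 6. Every array held RNA pooled from several rats, and the design text speaks of 3 rats and 2 litters without making clear whether this describes each pool. No genotype other than the strain is labelled. Across probe sets, which are not independent replicates, Pearson's r of the 2 arrays of a group was 0.987 to 0.997, lowest for F344 under hyperoxia on day 6. The 14 measured markers of retina averaged between 8.77 and 9.30 on the log2 scale on every array, against array medians of 5.45 to 5.52. All values below are log2 expression values of a probe set, and levels of different probe sets are not compared, because probes differ in brightness.

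The MHC of the rat, called RT1, is a dense block of immune genes that differs in sequence and in gene content between strains. Tap2 is a subunit of the peptide transporter that carries peptides into the endoplasmic reticulum for loading onto class I molecules. RT1-Bb is the beta chain of a classical class II molecule, which presents peptides to helper T cells, and RT1-DOb is the beta chain of a non-classical class II molecule that restrains the exchange of peptides on class II. Ly6g6e and Ly6g6d encode small surface proteins of the Ly6 family from the class III part of the MHC. In the brain and retina, class II molecules are mainly known from microglia and other immune cells.

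The promoters of the 3 antigen presentation genes are shown because these genes lie side by side yet differed between the strains in opposite directions. They come from RefSeq, assembly GRCr8, which is the Brown Norway strain and so neither of the strains measured. Each runs from 250 bases before to 50 bases after the annotated start, 5′ to 3′ on the gene's strand, which is the minus strand for all 3. Capitals mark the Y box core CCAAT (either strand) in RT1-DOb and RT1-Bb, and the interferon-stimulated response element core GAAANNGAA in Tap2. The positions are chr20:4652247-4652546 for Tap2, chr20:4627474-4627773 for RT1-DOb and chr20:4604069-4604368 for RT1-Bb.
Tap2: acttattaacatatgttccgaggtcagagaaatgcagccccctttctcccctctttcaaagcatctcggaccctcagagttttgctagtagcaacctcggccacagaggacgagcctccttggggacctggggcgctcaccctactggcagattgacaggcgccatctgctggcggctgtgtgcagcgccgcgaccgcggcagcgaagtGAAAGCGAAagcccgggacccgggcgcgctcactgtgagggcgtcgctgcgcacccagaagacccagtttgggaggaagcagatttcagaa
RT1-DOb: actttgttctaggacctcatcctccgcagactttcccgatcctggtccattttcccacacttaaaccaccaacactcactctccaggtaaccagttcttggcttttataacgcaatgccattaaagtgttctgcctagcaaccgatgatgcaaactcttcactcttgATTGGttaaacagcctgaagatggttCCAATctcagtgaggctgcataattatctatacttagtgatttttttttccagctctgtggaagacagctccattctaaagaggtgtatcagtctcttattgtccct
RT1-Bb: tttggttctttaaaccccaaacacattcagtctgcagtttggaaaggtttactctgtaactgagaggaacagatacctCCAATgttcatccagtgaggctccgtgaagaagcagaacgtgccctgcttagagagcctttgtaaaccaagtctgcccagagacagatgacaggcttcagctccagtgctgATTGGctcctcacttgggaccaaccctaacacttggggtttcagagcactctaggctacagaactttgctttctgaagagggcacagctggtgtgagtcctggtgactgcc
The Y box is an element of class II promoters that the factor NF-Y binds. Its core was present at 2 places in RT1-DOb, 83 and 57 bases before the start, and at 2 places in RT1-Bb, 172 and 61 bases before it, and at 0 in Tap2. Of all 33469 promoters of this length, 37.5% held it on either strand. The response element core stood 41 bases before the start of Tap2, was not found in the other 2, and was held by 9.71% of all promoters. The interferon-gamma activated site TTCNNNGAA, held by 8.87% of all promoters, was found in none of the 3. These matches describe letters of the reference strain, and the promoters of SD and F344 were not analysed here.

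Tap2, RT1-DOb and RT1-Bb are neighbours on chromosome 20 in the RefSeq gene order, and their spans do not overlap. Ly6g6d and Ly6g6e also lie side by side, with the span of Ly6g6e inside that of Ly6g6d, so probes of the one may lie within the other. From Ly6g6d to Tap2 the reference counts 68 gene places. Tap2, Ly6g6e and Ly6g6d were lower in SD retina than in F344 retina and RT1-DOb and RT1-Bb were higher, in room air and under cyclic hyperoxia and on both days.

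**Figure D1:**
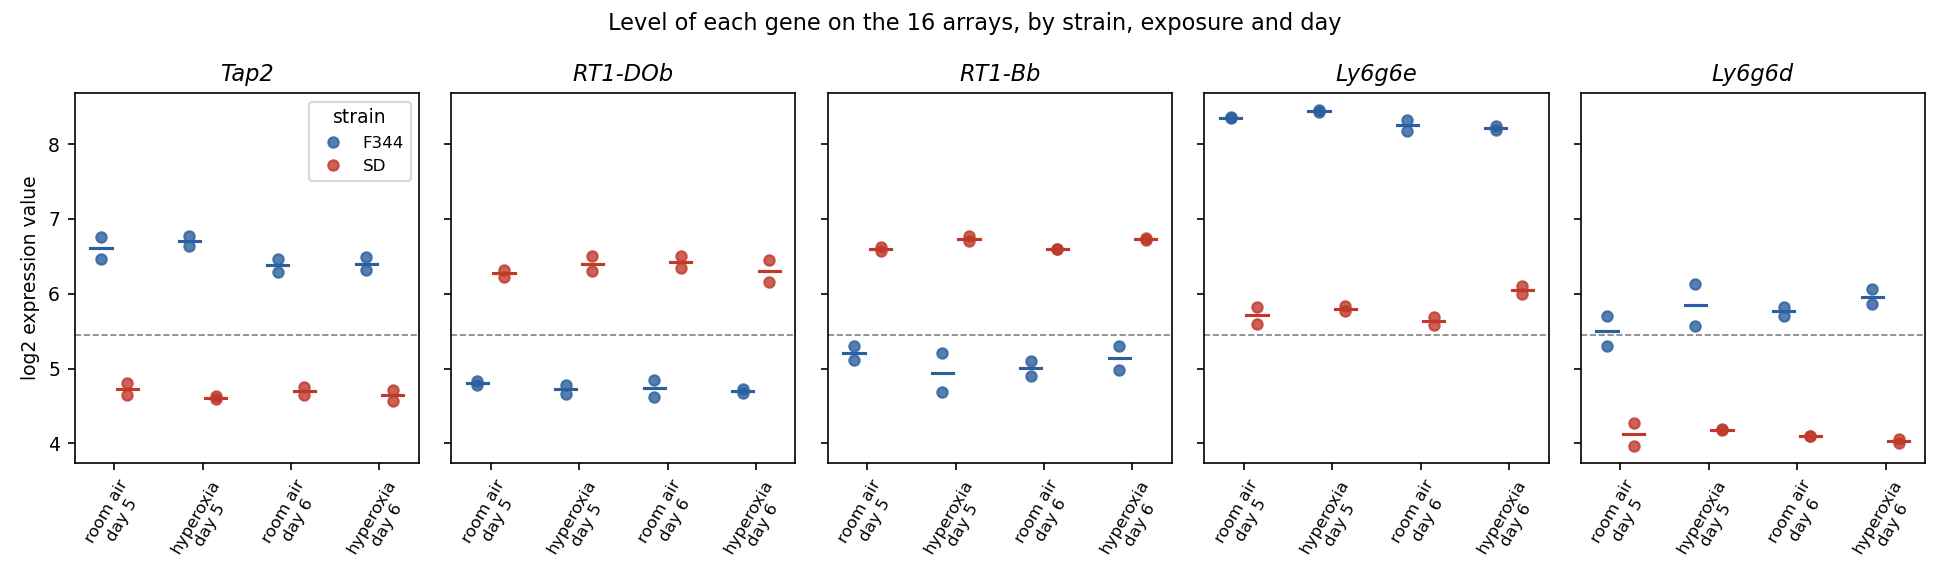
Log2 expression value (vertical axis) of the 5 genes in each exposure and day group, for F344 (blue) and SD (red); points are arrays, bars are group means of 2 arrays and the dashed line is the lowest array median, 5.45. The strains are apart in every group, by a gap between the nearest arrays of 1.03 for Ly6g6d to 2.07 for Ly6g6e over all 16 arrays.

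Tap2 (probe set 10831582) was the transporter gene that stood far lower in SD. In room air its values were 6.46 and 6.75 in F344 and 4.81 and 4.64 in SD on day 5. On day 6 in room air they were 6.47 and 6.29 in F344 and 4.76 and 4.65 in SD. Under cyclic hyperoxia they were 6.63 and 6.78 in F344 and 4.63 and 4.59 in SD on day 5, and 6.31 and 6.49 against 4.72 and 4.57 on day 6. The lowest F344 array lay 1.48 above the highest SD array, and all 8 SD arrays lay below the lowest array median. The SD minus F344 difference was −1.89 on day 5 and −1.68 on day 6 in room air, and −2.09 on day 5 and −1.76 on day 6 under hyperoxia.

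RT1-DOb (10831574) went the other way. In room air it read 6.32 and 6.23 in SD and 4.83 and 4.78 in F344 on day 5, and 6.51 and 6.34 against 4.62 and 4.85 on day 6. Under hyperoxia it read 6.31 and 6.50 in SD and 4.78 and 4.66 in F344 on day 5, and 6.46 and 6.16 against 4.68 and 4.73 on day 6. No F344 array came within 1.31 of the lowest SD array, and all 8 F344 arrays lay below the lowest array median. The room air differences were 1.47 and 1.69 on day 5 and day 6, and the hyperoxia differences 1.68 and 1.60.

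RT1-Bb (10831567), the classical class II beta chain, had the same direction. In room air its values were 6.57 and 6.62 in SD and 5.11 and 5.30 in F344 on day 5, and 6.59 and 6.61 against 5.10 and 4.91 on day 6. Under hyperoxia they were 6.77 and 6.70 in SD and 5.21 and 4.68 in F344 on day 5, and 6.75 and 6.72 against 4.98 and 5.30 on day 6. The 8 SD arrays were close together, with an SD of 0.077, while the F344 arrays spread with an SD of 0.211 at levels below the lowest array median. The strains were apart by 1.26 between the nearest arrays. The differences were 1.39 and 1.59 in room air and 1.79 and 1.59 under hyperoxia, for day 5 and day 6.

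Ly6g6e (10831229) was the gene of the 5 with the widest separation and the one whose values exceeded the lowest array median on all 16 arrays. In room air it read 8.35 and 8.36 in F344 and 5.82 and 5.60 in SD on day 5, and 8.18 and 8.33 against 5.69 and 5.58 on day 6. Under hyperoxia it read 8.44 and 8.45 in F344 and 5.84 and 5.77 in SD on day 5, and 8.19 and 8.24 against 6.10 and 6.00 on day 6. The nearest arrays of the strains were 2.07 apart, and the highest SD values were those of the hyperoxia arrays of day 6. The differences were −2.64 and −2.62 in room air and −2.64 and −2.16 under hyperoxia, for day 5 and day 6, or 6.23-fold, 6.14-fold, 6.24-fold and 4.48-fold.

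Ly6g6d (10828107) was dim in SD, where all 8 arrays lay below the lowest array median, while its F344 group means lay above it. In room air its values were 5.70 and 5.30 in F344 and 3.97 and 4.27 in SD on day 5, and 5.71 and 5.83 against 4.10 and 4.10 on day 6. Under hyperoxia they were 5.57 and 6.14 in F344 and 4.18 and 4.19 in SD on day 5, and 5.86 and 6.06 against 4.06 and 4.0 on day 6. The F344 arrays spread more, with an SD of 0.267 over 8 arrays against 0.102 in SD, and the strains still did not overlap. The differences were −1.38 and −1.67 in room air and −1.67 and −1.93 under hyperoxia, for day 5 and day 6.

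The strain difference was tested on the 8 hyperoxia arrays alone, on the assumption that the choice of the genes had not used them. Where it had, the p-values and ranks below only restate the choice. Averaged over both days and with limma and Benjamini-Hochberg adjustment over all 15097 probe sets, all 5 genes passed an adjusted p of 0.05, where 8.18% of probe sets passed in either direction. The 3 lower in SD are set beside 3.48% of probe sets called lower in SD, and the 2 higher beside 4.7% called higher. Ly6g6e was 5.29-fold lower in SD (log2 difference −2.40 ± 0.083 SE, n = 4 arrays per strain, limma adjusted p = 9.8e-09). Tap2 was lower, at −1.93 ± 0.090 (limma adjusted p = 1.71e-07) and Ly6g6d at −1.80 ± 0.12 (limma adjusted p = 5.27e-06). RT1-Bb was higher by 1.69 ± 0.12 (limma adjusted p = 9.02e-06) and RT1-DOb by 1.64 ± 0.098 (limma adjusted p = 2.25e-06). By size of this difference Ly6g6e stood 4th, Tap2 6th, Ly6g6d 7th, RT1-Bb 9th and RT1-DOb 10th among the 15097 probe sets. Array values include background, which can shrink a fold where the dimmer strain lay below the lowest array median. The estimated folds of these genes were 3.80 for Tap2, 3.48 for Ly6g6d, 3.23 for RT1-Bb and 3.12 for RT1-DOb. They set no bound on a difference in RNA, because a difference in probe binding cannot be told apart from it.

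All 5 genes also passed on each day by itself, with limma adjusted p between 1.9e-07 and 0.000493 on day 5, where 1.13% of probe sets passed, and between 1.46e-06 and 0.000707 on day 6, where 1.3% passed. The values of the strains did not overlap on the 8 hyperoxia arrays for any of the 5, as for 12.8% of all probe sets, nor on all 16 arrays, as for 1.68%. The 16-array count includes the room air arrays, which are taken to have served in the choice. The difference of each gene passed without any single array. The count of probe sets called under hyperoxia moved far more, from 1235 with all arrays. It was between 199 and 396 without any 1 of the SD arrays or without F344 replicate 2 of day 5, and it was 3044 and 2619 without F344 replicate 1 and F344 replicate 2 of day 6, the 2 partners with the lowest correlation.

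Each of these differences is a difference between the strains at 1 probe set. A sequence difference between SD and F344 under the probes changes the binding of a strain's RNA without a change in its amount, and the probes of RT1 genes can also bind near-identical RT1 transcripts. Either would repeat on other animals of the strain. Probe sequences and strain genotypes were not analysed here, and with 1 probe set a gene the difference in RNA and the difference in binding cannot be told apart. Fewer cells that express a gene and less RNA per cell also cannot be told apart in pooled retina.

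Genes of the same pathways showed smaller differences than the 5 genes, which were chosen for their strain difference. Of the class I antigen processing genes, 14 of 15 listed were measured, by 16 probe sets. Of these probe sets 3 were called under hyperoxia (limma, adjusted p under 0.05; 18.8%, beside 8.18% of all probe sets). Without Tap2, which was chosen for its strain difference, 2 of 15 were called (13.3%). Apart from Tap2 the called genes were Tap1, the other subunit of the same transporter, and Tapbpl, a peptide editor of class I molecules. Tap1 was lower in SD, at −0.58 ± 0.089 (limma adjusted p = 0.00325) and had a room air difference of −0.64, and both strains lay below the lowest array median. Tapbpl was higher by 0.47 ± 0.086 (limma adjusted p = 0.00837), a call lost without SD hyperoxia replicate 2 of day 5 or replicate 1 of day 6. The immunoproteasome subunits Psmb8 and Psmb9, whose genes lie beside Tap1 and Tap2, differed by 0.10 and −0.11 (limma adjusted p = 0.552 and 0.554). Psmb8 and Psmb9 lay below the lowest array median in both strains, where background can hide a difference. B2m, the light chain of class I molecules, differed by 0.30 (limma adjusted p = 0.217). The median over the 16 probe sets was 0.13, against 0.01 over all probe sets. When either F344 hyperoxia array of day 6 was left out, 6 of the list were called.

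Of 14 listed class II presentation genes 12 were measured, and 3 of them were called, all higher in SD (limma, adjusted p under 0.05; 25%). Over all probe sets 8.18% were called. Of the 3, RT1-Bb and RT1-DOb were chosen for their strain difference. Without these 2, 1 of the other 10 class II probe sets was called. It was 1 of the 7 of them that lie on chromosome 20 (14.3%). RT1-Ba, the alpha chain that pairs with RT1-Bb, differed by 0.37 ± 0.093 (limma adjusted p = 0.0322), from 4.51 in F344 to 4.88 in SD, both below the lowest array median. Its call was lost without any 1 of 6 of the 8 arrays, the exceptions being the F344 hyperoxia pair of day 6, and when probe sets without a symbol were tested too. RT1-DOa, the alpha chain that pairs with RT1-DOb, differed by −0.13 ± 0.084 (limma adjusted p = 0.419). The second classical class II pair, RT1-Da and RT1-Db1, differed by −0.09 and 0.17 (limma adjusted p = 0.648 and 0.274). Cd74, the invariant chain of class II, lay at 4.46 in SD and 4.43 in F344, and Ciita, the master activator of class II genes, differed by −0.05 (limma adjusted p = 0.781). RT1-DOa, RT1-Da, RT1-Db1, Cd74 and Ciita lay below the lowest array median in both strains, where background can hide a difference. Over the 12 probe sets the median difference was 0.00.

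Markers of cells that carry class II molecules were measured beside these genes. The 10 class II probe sets other than RT1-Bb and RT1-DOb averaged 4.86 to 5.00 on the SD hyperoxia arrays and 4.84 to 4.99 on the F344 hyperoxia arrays, with 8 of the 10 below the lowest array median in each strain. The 17 microglia and macrophage markers averaged 5.01 to 5.22 in SD and 5.00 to 5.22 in F344. Most were dim, with 11 in SD and 10 in F344 below the lowest array median. Of the 17, 1 was called (5.88%, beside 8.18% of all probe sets), the microglial receptor P2ry12. It was higher in SD by 0.67 ± 0.12 (limma adjusted p = 0.00735). That call was lost without SD hyperoxia replicate 1 of day 6. All 5 B cell markers and all 10 T and NK cell markers had group means below the lowest array median, and 0 of either were called (limma). The 7 dendritic cell markers averaged 4.78 to 4.90 in SD and 4.89 to 4.91 in F344, with 5 below the lowest median and 0 called (limma). Their means overlapped narrowly between the strains, with most of these markers at levels where background can hide a difference. Of 22 interferon response genes 1 was called (4.55%), Mx2, higher in SD by 0.58 ± 0.11 (limma adjusted p = 0.0106). The interferon count was 0 without replicate 2 of either hyperoxia group of day 5 or SD hyperoxia replicate 1 of day 6, and 3 or 2 without an F344 hyperoxia array of day 6. Of the 14 retina markers 4 were called (28.6%, beside 8.18% of all probe sets). The photoreceptor genes Rcvrn and Sag and the glial gene Rlbp1 were higher in SD by 0.45 to 0.56, and Prox1 was lower, at −0.35. These calls rested on single arrays: the count was 0 without F344 replicate 2 or SD replicate 1 of day 5 or without either SD array of day 6, 1 or 2 without the other arrays of day 5, and 6 without F344 replicate 1 of day 6. Prox1 lost its call in 10 of 16 alternatives and Rlbp1 in 7. Of 8 endothelial markers, 7 in SD and 6 in F344 lay below the lowest array median under hyperoxia. The 1 called (12.5%) was the tight junction gene Cldn5, lower in SD, at −0.57. It lost its call without any 1 of the F344 hyperoxia arrays of day 5 or of the SD hyperoxia arrays, and 2 were called without F344 replicate 1 of day 6. What part cells of these types have in the strain differences of the 5 genes was not tested.

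Of 24 measured probe sets of the Ly6 family 7 were called (limma, adjusted p under 0.05; 29.2%, beside 8.18% of all probe sets). Without Ly6g6e and Ly6g6d, which were chosen for their strain difference, 5 of 22 were called (22.7%). Of the 7, 5 were among the 6 that lie on chromosome 20. Besides Ly6g6e and Ly6g6d these were the neighbours Ly6g6c, lower in SD, at −1.17 ± 0.14 (limma adjusted p = 0.000889), Ly6g6f, lower, at −0.54 ± 0.10 (limma adjusted p = 0.00954), and Ly6g5b, higher by 0.48 ± 0.095 (limma adjusted p = 0.0106). Their room air differences were −1.15, −0.33 and 0.28. The sixth, Ly6g5c, differed by −0.02 (limma adjusted p = 0.936) and was dim in both strains. Of the 18 family members on other chromosomes, 2 were called (11.1%): Ly6e, higher in SD by 0.40 ± 0.105 (limma adjusted p = 0.0366), and Ly6h, lower, at −0.43 ± 0.099 (limma adjusted p = 0.0225). Calls were lost for Ly6g6f and Ly6g5b in 3 alternatives each, all of them single arrays left out, for Ly6h in 5 and for Ly6e in 6. Of the family, 3 were called without F344 or SD hyperoxia replicate 2 of day 5, or without SD hyperoxia replicate 1 of day 6.

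**Figure D2:**
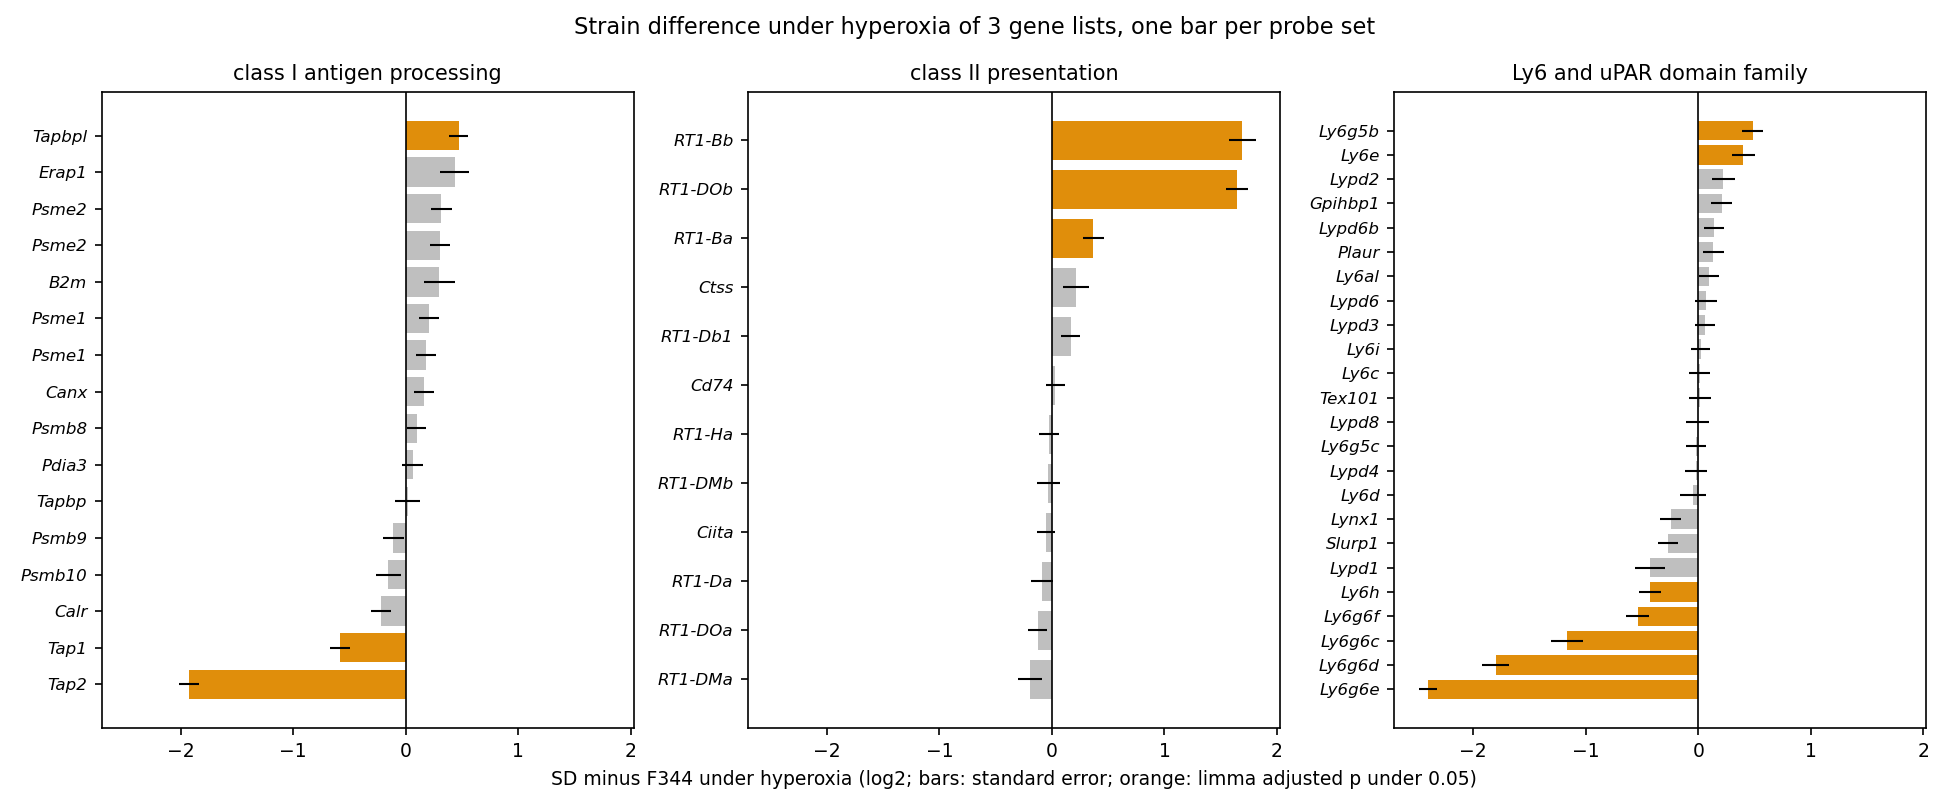
SD minus F344 difference under cyclic hyperoxia (log2, horizontal axis) of each measured probe set of 3 gene lists; bars are the difference averaged over both days, lines its standard error, and orange marks a limma adjusted p under 0.05. Tap2 at −1.93, RT1-Bb at 1.69, RT1-DOb at 1.64, Ly6g6d at −1.80 and Ly6g6e at −2.40 lie at the ends of their lists. These genes were chosen for their strain difference.

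Along the chromosome the differences were uneven. Of the stretch from 10 gene places before Ly6g6d to 10 beyond Tap2, 56 other probe sets were measured. Of these 12 were called, 9 lower in SD and 3 higher (limma, adjusted p under 0.05, 21.4%). The share was 8.18% over all probe sets and 12% on all of chromosome 20, which includes this stretch and the 5 genes. The median difference of the 56 was −0.06. Among the 10 nearest genes on each side of Ly6g6d, 17 others were measured and 5 were called (29.4%). Of these, Abhd16a, a lipid hydrolase gene, was lower, at −0.68 ± 0.082 (limma adjusted p = 0.0007), Ly6g6c and Ly6g6f were lower as given above, and G4 and Ly6g5b were higher, G4 by 0.51 ± 0.098 (limma adjusted p = 0.0103). Around each of Tap2, RT1-DOb and RT1-Bb, 12 others were measured and 2 were called (16.7%), Tap1 lower and RT1-Ba higher. Counted once, 7 of the 30 neighbours of the 5 genes passed (23.3%, beside 8.18% of all probe sets). The count was 3 without F344 or SD hyperoxia replicate 2 of day 5, or without SD hyperoxia replicate 1 of day 6, while Abhd16a, Ly6g6c and Tap1 passed without any single array.

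**Figure D3:**
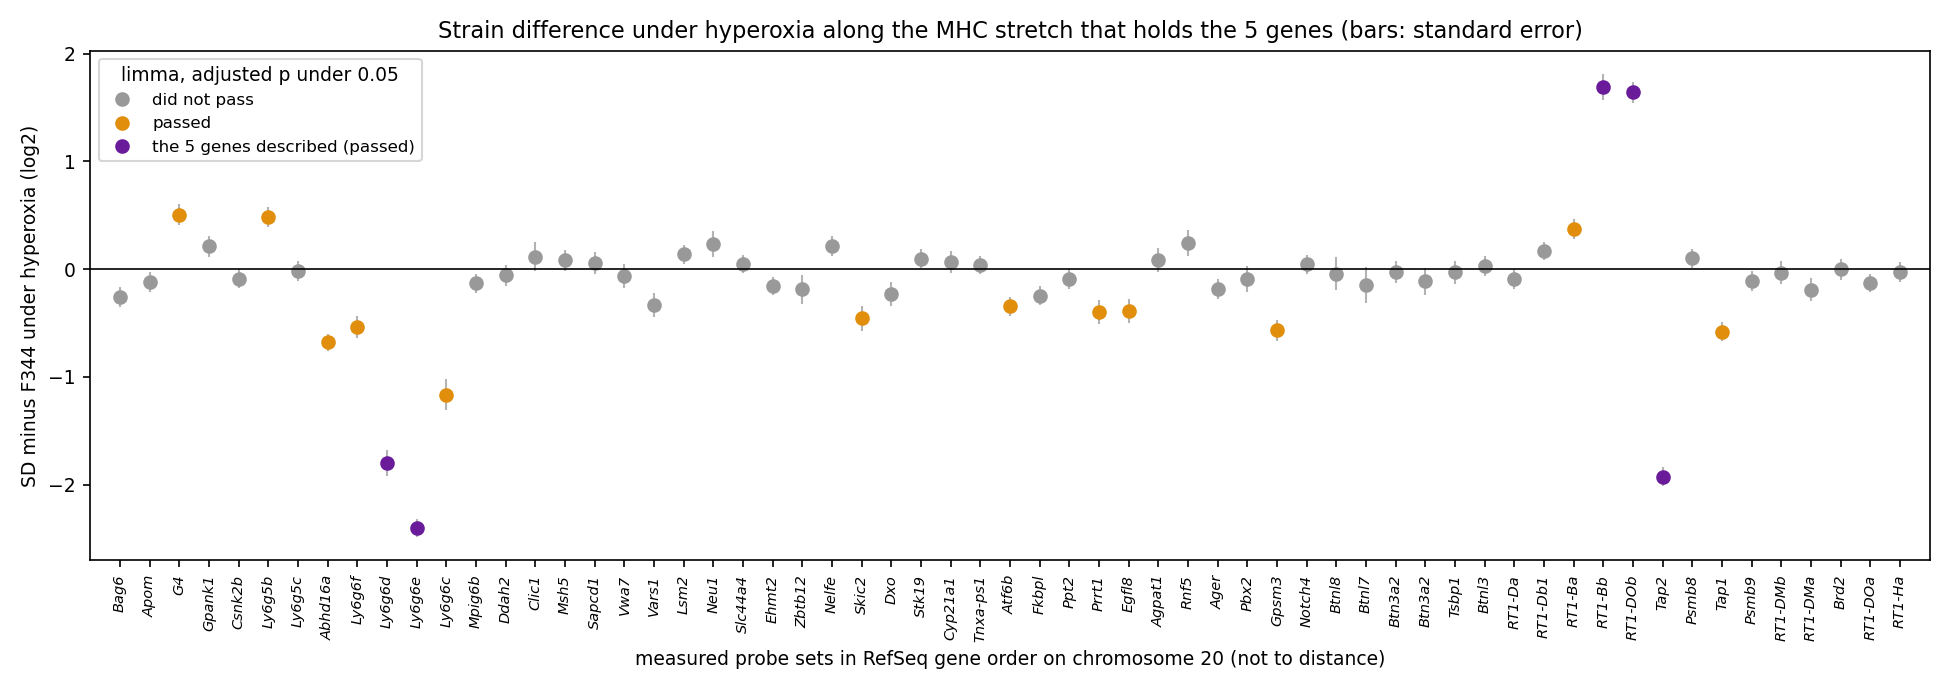
SD minus F344 difference under cyclic hyperoxia (log2, vertical axis; lines are standard errors) of the 61 measured probe sets around the 5 genes, in RefSeq gene order and not to distance; purple marks the 5 genes, orange other probe sets with a limma adjusted p under 0.05 and grey the rest. RT1-Bb at 1.69 and RT1-DOb at 1.64 stand next to Tap2 at −1.93, and Ly6g6d and Ly6g6e stand between the smaller differences of Ly6g6f, −0.54, and Ly6g6c, −1.17.

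The listed class III genes and the RT1 class I genes had smaller differences than the 5 genes, which were chosen for their strain difference. The class III list left out the Ly6 genes and the called G4 and Skic2. Of the Ly6 genes left out, Ly6g6c, next to Ly6g6e, differed more than any listed class III gene, at −1.17. Of the 42 class III genes of the list that were measured, 8 were called (19%, beside 8.18% of all probe sets), 7 of them lower in SD. Among those listed, Abhd16a differed most, and Gpsm3, a regulator of G protein signalling, followed at −0.57 ± 0.097 (limma adjusted p = 0.00597). The count was 2 or 3 without any 1 of the F344 hyperoxia arrays of day 5 or of the SD hyperoxia arrays, and 13 without F344 hyperoxia replicate 2 of day 6. Of 26 RT1 class I probe sets 3 were called (11.5%, beside 8.18% of all probe sets). RT1-S3 was higher by 0.44, and RT1-T24-4 and RT1-CE16 were lower, at −0.39 and −0.32 (limma adjusted p = 0.0199, 0.0265 and 0.0418). RT1-T24-4 lost its call in the fit of all 16 arrays, and RT1-CE16 when every probe set was tested (limma, adjusted p over 0.05). A second RT1-T24-4 probe set differed by 0.12 (limma adjusted p = 0.504), and the count was 0 or 1 without any 1 of the F344 hyperoxia arrays of day 5 or of the SD hyperoxia arrays, and 6 or 7 without an F344 hyperoxia array of day 6. Probes of RT1 class I genes may bind near-identical RT1 transcripts, which was not analysed here, so these values are uncertain.

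None of the 5 genes passed the test of an oxygen effect in either strain on either day (limma, all 16 arrays, adjusted p under 0.05). In SD the oxygen effect, hyperoxia minus room air, ran from −0.11 to 0.14 over the 5 genes on day 5, where 0.0729% of all probe sets passed. On day 6 it ran from −0.12 to 0.42, where 3.36% passed. In F344 it ran from −0.26 to 0.35 on day 5, where 0.106% passed, and from −0.04 to 0.20 on day 6, where 1.01% passed. Unadjusted, 1 of these 20 values had a limma p under 0.05, that of Ly6g6e in SD on day 6. There the arrays read 6.10 and 6.00 under hyperoxia and 5.69 and 5.58 in room air and did not overlap, a difference of 0.42 ± 0.11 (95% interval 0.18 to 0.65, limma adjusted p = 0.0519). When either F344 hyperoxia array of day 6 was left out, which bear on it only through the shared spread, its limma adjusted p was 0.0303. The intervals of all the other values included 0, and the one that reached farthest from it, that of Ly6g6d in F344 on day 5, ran from −0.02 to 0.72.

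**Figure D4:**
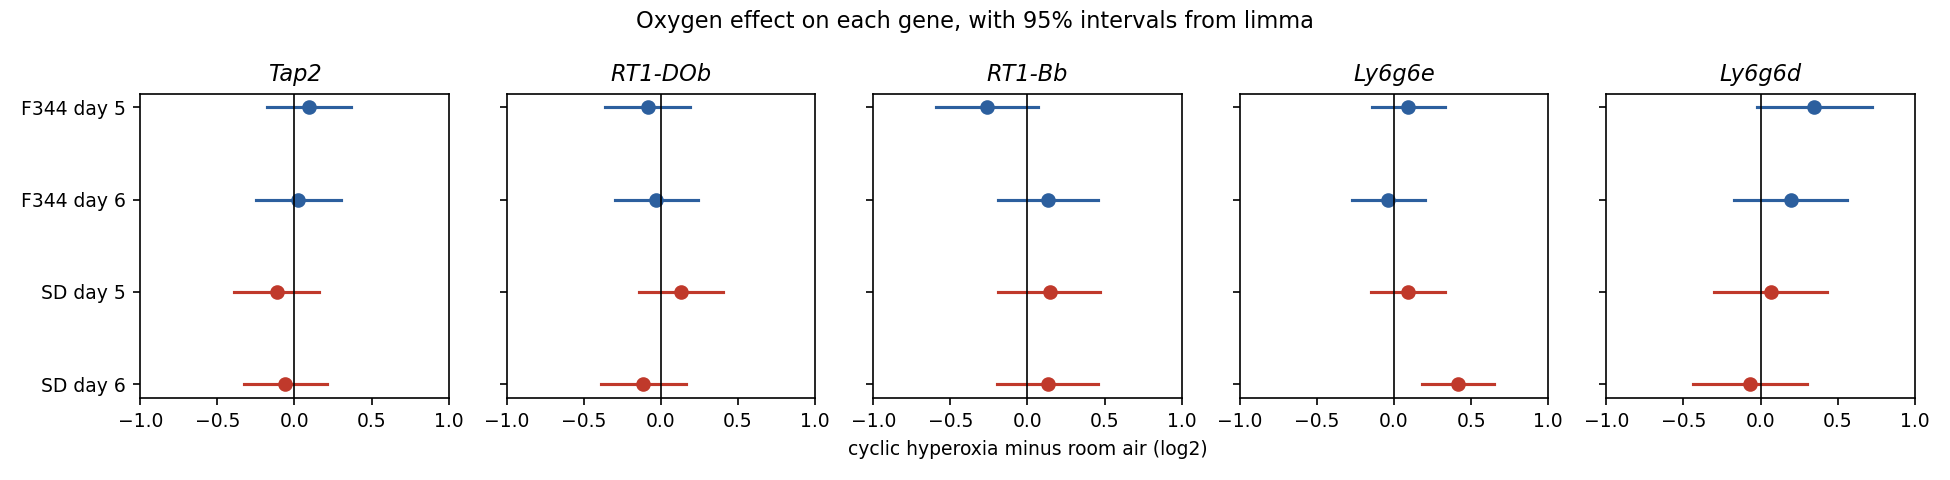
Oxygen effect, cyclic hyperoxia minus room air (log2, horizontal axis), of the 5 genes in each strain and on each day; points are limma estimates from 2 arrays per group and lines their 95% intervals. Ly6g6e in SD on day 6, at 0.42, is the value whose interval lies apart from 0.

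None of the 5 genes passed the test of a difference in oxygen effect between the strains (limma, adjusted p under 0.05). On day 5 the SD minus F344 difference of the effect ran from −0.28 for Ly6g6d to 0.40 for RT1-Bb (limma adjusted p from 0.85), where 0 of 15097 probe sets passed (0%), with 912 at an unadjusted p under 0.05. On day 6 it ran from −0.26 for Ly6g6d to 0.46 for Ly6g6e, where 0.0596% passed. The Ly6g6e value had a 95% interval of 0.12 to 0.79 (limma adjusted p = 0.257). For RT1-Bb on day 5 the F344 hyperoxia arrays read 5.21 and 4.68, and the interval ran from −0.06 to 0.87.

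Between day 5 and day 6, averaged over both exposures, 0 of the 5 genes passed in either strain (limma). In SD the day 6 minus day 5 difference ran from −0.09 to 0.09, where 1.8% of probe sets passed. In F344 it ran from −0.27 to 0.19, where 6.3% passed. The lowest F344 value was that of Tap2, −0.27 ± 0.091 (95% interval −0.46 to −0.07, limma adjusted p = 0.0974). Its F344 arrays read 6.46 to 6.78 on day 5 and 6.29 to 6.49 on day 6, and these overlapped.

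Over the 16 arrays the 5 genes split into sides by strain, and the correlations describe that split. Tap2, Ly6g6e and Ly6g6d correlated with one another with Pearson's r of 0.958 to 0.988, RT1-DOb and RT1-Bb with 0.978, and genes of opposite sides with −0.985 to −0.972. The 16 points are not independent, since arrays of a strain share that strain and arrays of a group also share an exposure and a day. The probe sets most like Tap2 were both of Mospd1 (r = 0.989 and 0.988) and that of Ly6g6e (0.988), and Mospd1 was also the most alike for Ly6g6e (0.992) and Ly6g6d (0.965). Pter was the most alike for RT1-DOb (0.987) and Otud6b for RT1-Bb (0.981). The most opposite were Slc26a7 for Ly6g6e (−0.993), Tmco3 for Ly6g6d (−0.982), RT1-DOb for Tap2 (−0.981), Mospd1 for RT1-DOb (−0.987) and Mospd1, level with Ly6g6d, for RT1-Bb (−0.979). In RefSeq Mospd1 lies on chromosome X, Pter on 17, Tmco3 on 16 and Slc26a7 and Otud6b on 5, so patterns as like the 5 genes as they are to each other also came from outside the MHC.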

How the data were processed

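The authors deposited log2 expression values of 27342 probe sets on 16 arrays, made with RMA in Partek 6.4 per the submitters' processing notes. RMA corrects background, normalizes by quantiles across arrays and summarises each probe set on the log2 scale, which takes out any change shared by most transcripts. Scanner files and probe sequences were not analysed here. Array values include background, and the precision is set by the number of arrays.

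Gene names came from the platform annotation: 15097 had 1 gene symbol, 323 several, and 11922 were not listed. Of the 15097, 15067 were matched by Entrez identifier to RefSeq (GRCr8) for names and gene order and 30 kept the annotated symbol. The genes, gene lists and tests were chosen with earlier results of these data known.

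limma 3.58.1 in R 4.3.3 was run on the 15097 probe sets with 1 mean per group. The strain difference used the 8 hyperoxia arrays (4 residual and 7.99 prior degrees of freedom). The oxygen effect, its strain difference and the day difference used all 16 arrays (8 residual and 7.28 prior). P values were adjusted by Benjamini-Hochberg over all 15097, and a probe set was called at an adjusted p under 0.05. The code was tested on simulated data. The p-values reflect the spread between the arrays of a group, each a pool, which limma moderates towards the spread of all probe sets. They do not measure the spread between single rats. Errors after ± are moderated standard errors.

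Genes named beside the 5 were drawn from the called genes of each list and of the 10 neighbours on each side, at most 8 each way. Not all of these were named, and of the 8 called class III genes only some were. Others came from the 3 probe sets with the highest and the 3 with the lowest r to each gene, again not all named. Other genes of these pathways were named after their values were seen. Alternatives were the arrays in the fit, the probe sets tested, a filter on dim probe sets, the prior, the scaling, a replicate block and leaving out each array.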

Additional observations from a re-analysis of the deposited data

How the results depend on the processing

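The strain differences of the 5 genes under hyperoxia kept their direction and stayed past the threshold in 79 of 79 comparisons with an alternative (limma). Tap2 ran from −1.97 to −1.88, RT1-DOb from 1.57 to 1.72, RT1-Bb from 1.56 to 1.82, Ly6g6e from −2.43 to −2.38 and Ly6g6d from −1.94 to −1.66. With dim probe sets left out Ly6g6d was not tested, and 4 of 4 passed. Counts of other genes depended on single arrays: leaving out 1 hyperoxia array gave 199 to 3044 called probe sets, 3 to 9 called neighbours, 4 to 17 called others of the stretch, 2 to 6 of class I processing, 0 to 7 of RT1 class I, 3 to 10 of the Ly6 family, 2 to 13 of class III, 0 to 3 interferon response genes, 0 to 1 microglia markers, 0 to 6 retina markers and 0 to 2 endothelial markers. The causes were not tested. The filter on dim probe sets left 4 neighbours and 0 RT1 class I, interferon and endothelial probe sets called. Testing every probe set left 2 retina markers. The 16-array fit called 6 of class I processing and 5 of class III, and testing every probe set called 5 of class III. Leaving out 1 array gave 0 to 1 of the 5 genes called for oxygen in SD on day 6. There the difference of Ly6g6e ran from 0.36 to 0.47, with adjusted p from 0.0303 to 0.401 (limma). With the replicate number as a replicate block, 5 of the 5 genes were called, and 1133 was the number of probe sets called under hyperoxia. That fit called 2 RT1 class I probe sets, since RT1-CE16 lost its call (limma adjusted p = 0.0566). The labels tie the numbers to no litter or batch, and they did not meet the bar for pairing: deviations of same-numbered arrays correlated with r from −0.29 to 0.51 over 28 pairs of groups, and 8 exceeded 0.1. Of 1072 comparisons over all results, 869 were labelled the same, 137 lost a call, 2 gained one, 64 counts moved and 0 reversed. A tested difference was the same when it stayed on its side of the threshold. A count was the same when it changed by no more than a set ratio, so some of the 869 are counts that shifted. Background limits the dim genes, whose folds it can shrink.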
